A study of Drosophila melanogaster with 3 samples.

Results

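The *mxcmbn1* library, from larvae with a lymph gland tumour, was compared with the *mxcG43* library, from larvae of an allele without a tumour, gene by gene. All entries of the deposited table that stand for a single gene were taken, which were 14900 of 15185 entries. The other 285 entries join several genes and were left out. The comparison used 2 of the 3 libraries of the series, with 1 library for each genotype, so values and ratios are given and no gene was tested. The wild-type library is given beside them as a further level.

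RNA came from whole bodies of male larvae of the 3rd instar in each case. *mxcmbn1* is a recessive lethal allele of the X-linked gene *multi sex combs* (*mxc*), and its larvae were hemizygous. It was taken from a stock that also carried *w1*, a mutation of the eye pigment transporter gene *white*, after a duplication bearing *mxc+* had been removed. *mxcG43* is a hypomorphic allele of *mxc* from a public stock centre, described as showing no tumour phenotype. The wild type was Canton S. Hours of larval age, the number of larvae in a sample and shared backgrounds of the stocks were not given in the sources used here, so the allele, the stock and the age of the larvae cannot be told apart.

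The Mxc protein is part of the nuclear body that forms at the histone gene cluster, where it is needed for the transcription and processing of histone mRNAs. The lymph gland is the blood-forming organ of the larva, and its cells give rise to plasmatocytes (phagocytes), crystal cells (which carry prophenoloxidase) and lamellocytes (which encapsulate large foreign bodies). The fat body secretes antimicrobial peptides (AMPs) when the Toll or Imd pathway is active, and stress peptides of the Turandot family under JAK/STAT signalling. A whole larva also holds imaginal discs, salivary glands, a gut, an epidermis that makes cuticle and, in males, a testis with spermatocytes.

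Levels are in FPKM, the fragments of a gene divided by its length and by the mapped fragments of its library. *mxc* itself, on the X chromosome from 9130834 to 9137237 (BDGP5), had an FPKM of 3.56 in *mxcmbn1*, 1.94 in *mxcG43* and 1.96 in wild type. Its transcript was thus present in both mutants and 1.83 times higher in *mxcmbn1* than in *mxcG43*. *w*, the gene mutated in the *mxcmbn1* source stock, had 0.243 in *mxcmbn1*, 5.18 in *mxcG43* and 7.25 in wild type. It was thus lowest in *mxcmbn1*, whose source stock the study describes as carrying *w1*, although 24 entries overlap its locus. The *w* allele of the *mxcG43* stock was not given in the sources used here. *roX1*, a non-coding RNA of male dosage compensation, had 195 in *mxcmbn1*, 201 in *mxcG43* and 247 in wild type, so this male RNA was present in all libraries. The reference gene *RpL32*, a ribosomal protein, had 1464 in *mxcmbn1*, 1259 in *mxcG43* and 1312 in wild type.

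At least 1 FPKM was reached in either mutant library by 11725 genes, which are called measured here. The log2 ratio of FPKM plus 0.1 in *mxcmbn1* over *mxcG43* had a median of -0.03 over these genes, with 59.7% of them within 2 times. A gene is called higher or lower here when this ratio passed 4 times. In *mxcmbn1*, 615 genes were higher than in *mxcG43* (5.25%) and 2162 genes were lower (18.4%). Among them, 167 of the higher genes were listed at 0 in *mxcG43* and 454 of the lower genes were listed at 0 in *mxcmbn1*. The shares over all genes measured, 5.25% higher and 18.4% lower, are the background for the list counts below. In these whole larvae, fewer cells of a type and less RNA per cell cannot be told apart.

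The higher genes had a median FPKM of 22.01 in *mxcmbn1*, 0.845 in *mxcG43* and 1.52 in wild type. The lower genes had a median of 0.208 in *mxcmbn1*, 9.58 in *mxcG43* and 9.86 in wild type. The median of the lower genes was thus alike in *mxcG43* and wild type. Grouped by the higher of both FPKM values, 15.3% of the 157 genes at 1000 or more were higher and 4.76% of the 4855 genes between 1 and 10. The share of lower genes ran the other way, with 10.2% above 1000 and 23.1% between 1 and 10. The same values set the group and the call, so a gene can enter a group through its own change. Among the lower genes, 77.1% carry only a CG or CR number as a name, against 54.7% of all genes measured.

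**Figure D1:**
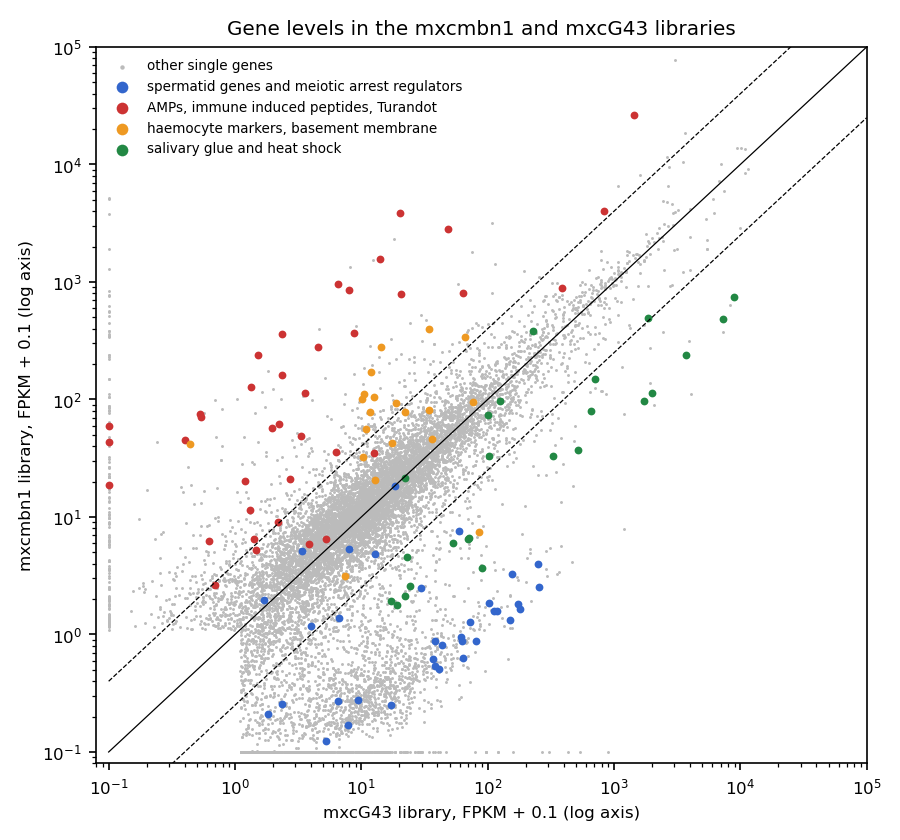
Each point is 1 of the 11725 genes, with FPKM plus 0.1 in *mxcmbn1* on the vertical axis and in *mxcG43* on the horizontal axis, both log axes. The solid line marks equal levels and the dashed lines 4 times higher or lower. The 2162 lower genes lie under the lower line, 1710 of them at least 10 times lower, and most spermatid genes are among them. The immune induced and Turandot genes stand above the upper line, most of them far above it.

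Ratios were ranked over genes that reached an FPKM of 10 in 1 of both libraries and were above 0 in the other. The 15 highest ratios lay between 124 and 306 times. Reads were recovered for only 4 of these 15 genes, and 3 of the 4 rest on 3 or fewer *mxcG43* reads. The highest, *CG43799*, is one of these, with 42.96 in *mxcmbn1*, 0.140 in *mxcG43* and 3.81 in wild type, on 428 reads in *mxcmbn1* and 1 in *mxcG43* (95% Clopper-Pearson interval 54.7 to 12120). *Turandot* genes took 4 of these places (*TotC*, *TotZ*, *TotB* and *TotF*), and *Victoria*, another gene of that family, took another at 130 times. The Turandot proteins are secreted humoral factors of the stress response. *TotC* had 3836 in *mxcmbn1*, 20.2 in *mxcG43* and 31.8 in wild type, a ratio of 190 to *mxcG43*. *TotB*, beside it, had 358 in *mxcmbn1*, 2.25 in *mxcG43* and 2.72 in wild type, a ratio of 160. *TotZ* had 238 in *mxcmbn1*, 1.43 in *mxcG43* and 1.58 in wild type. *TotA* had the highest level of the family in every library, at 26212 in *mxcmbn1*, 1436 in *mxcG43* and 722 in wild type, and its ratio to *mxcG43* was 18.2. *TotA*, *TotC*, *TotB* and *TotZ* lie side by side on 3R between 16696758 and 16704164 and were higher without a break. All 7 members measured were higher in *mxcmbn1* than in *mxcG43*, with a median log2 ratio of 7.26. *TotX*, listed at 0 in *mxcG43*, is one of them, and without it the median was 7.03.

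The immune induced molecules are small peptides that the fat body releases into the haemolymph upon infection. All 17 members measured were higher, with a median log2 ratio of 5.96 (5.92 without *CG5791*, listed at 0 in *mxcG43*), and their median FPKM was 282 in *mxcmbn1*, 4.43 in *mxcG43* and 6.30 in wild type. *IM1* had 969.7 in *mxcmbn1*, 6.495 in *mxcG43* and 6.30 in wild type, or 149 times the *mxcG43* level. *IM3* had 2850 in *mxcmbn1*, 48.5 in *mxcG43* and 56.8 in wild type. *IM4* had 126 in *mxcmbn1*, 1.23 in *mxcG43* and 0.794 in wild type. In each of these, *mxcG43* and wild type were of like level and *mxcmbn1* stood apart. The smallest ratio of the group was that of *CG16712*, with 4049 in *mxcmbn1*, 826 in *mxcG43* and 645 in wild type. *CG15067* was the family member with the highest ratio on recovered reads, at 164 times, with 229 reads in *mxcmbn1* and 1 read in *mxcG43* (interval 29.1 to 6497). The longest run of neighbouring higher genes in the genome was the 10 genes on 2R between 14268914 and 14278114 from *CG43202* to *CG15068*, which holds *IM1*, *IM2*, *IM3* and *IM23*.

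The AMPs are peptides that act against bacteria or fungi. Of 14 members measured, 8 were higher, none was lower, and all 14 had a positive log2 ratio, with a median of 2.12 (2.05 without *CecC*, listed at 0 in *mxcG43*). *Drs* (*Drosomycin*), an antifungal peptide under Toll control, had the highest level of the family, with 889 in *mxcmbn1*, 387 in *mxcG43* and 39.6 in wild type. It was 2.30 times higher in *mxcmbn1* than in *mxcG43* and did not pass 4 times, and the *mxcG43* level itself stood above that of wild type. *DptB*, a diptericin under Imd control, had 56.8 in *mxcmbn1*, 1.85 in *mxcG43* and 20.1 in wild type. *AttA*, an attacin, had 20.2 in *mxcmbn1*, 1.10 in *mxcG43* and 22.1 in wild type. *Dpt* had 35.3 in *mxcmbn1*, 6.25 in *mxcG43* and 20.3 in wild type, and *Dro* had 6.36 in *mxcmbn1*, 1.32 in *mxcG43* and 6.23 in wild type. For these 4 peptides the wild-type level was above the *mxcG43* level. *Mtk* (*Metchnikowin*) had 35.1 in *mxcmbn1*, 12.6 in *mxcG43* and 7.32 in wild type. *CecC*, a cecropin, had 20 recovered reads in *mxcmbn1* and none in *mxcG43*, and was at least 4.77-fold higher in *mxcmbn1* against a floor of 3 reads. *Def* (*Defensin*) was nearly level, with 6.36 in *mxcmbn1*, 5.15 in *mxcG43* and 0.454 in wild type, on 19 and 11 recovered reads in *mxcmbn1* and *mxcG43*. *CecA2* had 2.52 in *mxcmbn1*, 0.598 in *mxcG43* and 1.16 in wild type.

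The 4 paralogs of *Drs* measured went both ways, with 2 higher and 1 lower. *dro5* had 7.73 in *mxcmbn1*, 1193 in *mxcG43* and 48.5 in wild type, so it was 154 times lower in *mxcmbn1* than in *mxcG43*. *dro2* had 63.6 in *mxcmbn1*, 139 in *mxcG43* and 10.9 in wild type. *Drs-l* and *dro3* were listed at 0 in *mxcG43* and wild type and had 1.97 and 6.67 in *mxcmbn1*.

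**Figure D2:**
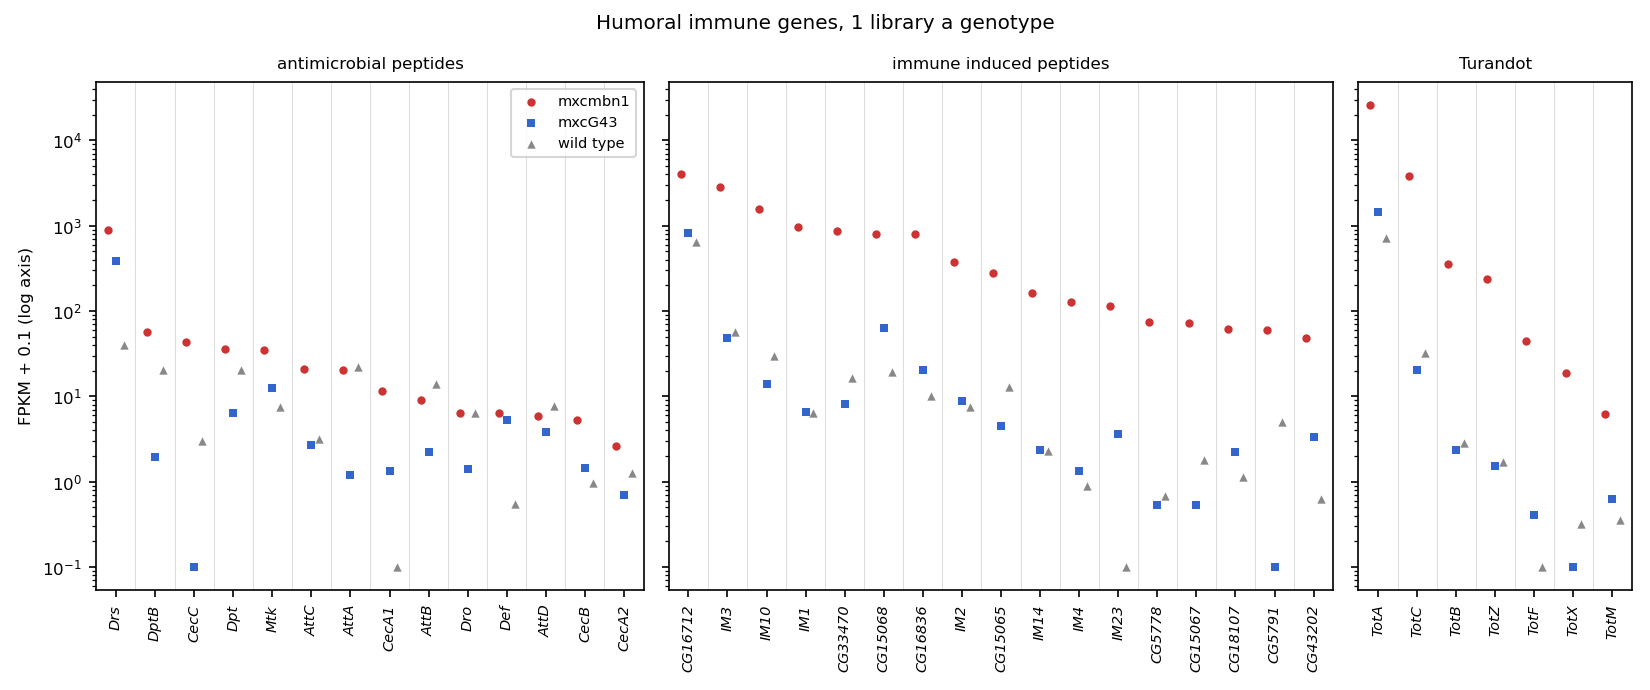
FPKM plus 0.1 (log axis) of the AMPs, immune induced peptides and Turandot genes in *mxcmbn1* (circles), *mxcG43* (squares) and wild type (triangles), 1 library each. The immune induced and Turandot points of *mxcmbn1* lie above both other libraries in every gene, while for *AttA* and *Dro* the wild-type point lies beside that of *mxcmbn1*; a point at 0.1 is a gene listed at 0.

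Upstream of these effectors, few genes passed 4 times. Of 10 Imd pathway genes none did, and all 10 had a positive log2 ratio with a median of 0.52. *Rel*, the NF-kB factor of that pathway, had 38.7 in *mxcmbn1*, 14.2 in *mxcG43* and 23.9 in wild type, and the adaptor *imd* had 18.6 in *mxcmbn1*, 13.4 in *mxcG43* and 11.4 in wild type. Of 11 Toll pathway genes, *spz*, which encodes the ligand of the receptor Toll, was the only one higher, with 91.3 in *mxcmbn1*, 7.16 in *mxcG43* and 15.1 in wild type. The receptor *Tl* had 17.7 in *mxcmbn1*, 7.37 in *mxcG43* and 9.32 in wild type, and the inhibitor *cact* had 46.8 in *mxcmbn1*, 39.9 in *mxcG43* and 30.02 in wild type. Among these single genes, *spz* was thus at 12.8 times and the others were under 4 times. *SPE*, the protease that activates this ligand, lies only in an entry joined with *CG18754*. That entry had 83.0 in *mxcmbn1*, 5.96 in *mxcG43* and 6.13 in wild type. The entry joining *Dif* with *dl* had 59.7 in *mxcmbn1*, 24.9 in *mxcG43* and 19.9 in wild type.

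Bacterial recognition genes were mostly level between both mutants. Of 15 members measured, *PGRP-LF*, a membrane receptor that damps the Imd pathway, was higher, at 10.95 in *mxcmbn1*, 1.82 in *mxcG43* and 5.62 in wild type. *PGRP-SB2* was lower, at 0.141 in *mxcmbn1*, 12.6 in *mxcG43* and 1.14 in wild type. Of the amidases that degrade peptidoglycan, *PGRP-SC1a* and *PGRP-SC2* stood out against wild type rather than between the mutants. *PGRP-SC1a* had 302 in *mxcmbn1*, 347 in *mxcG43* and 15.7 in wild type, but its near-identical copy *PGRP-SC1b* may share its reads. *PGRP-SC2* had 415 in *mxcmbn1*, 387 in *mxcG43* and 81.4 in wild type.

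In the JAK/STAT pathway, 3 of 7 members measured were higher and none was lower. *upd3*, a cytokine that starts the pathway, had 2.20 in *mxcmbn1*, 0.406 in *mxcG43* and 0.306 in wild type, on 68 recovered reads in *mxcmbn1* and 9 in *mxcG43*. *Socs36E*, a target gene that damps the pathway, had 36.6 in *mxcmbn1*, 4.93 in *mxcG43* and 5.64 in wild type. *et*, a short receptor that also damps it, had 25.4 in *mxcmbn1*, 2.43 in *mxcG43* and 2.85 in wild type. These 3 were the members past 4 times, while the receptor *dome*, the kinase *hop* and the factor *Stat92E* lay at 1.70, 1.65 and 1.67 times. The list member *Ptp61F* was also within 4 times, and *os* and *upd2* stayed under 1 FPKM in both mutants. Of 5 thioester proteins, relatives of complement, 3 were higher. *TepI* had 98.2 in *mxcmbn1*, 3.97 in *mxcG43* and 5.70 in wild type, against *Mcr* with 9.13 in *mxcmbn1*, 13.7 in *mxcG43* and 16.03 in wild type.

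Blood cell genes were higher as well. Of 10 haemocyte markers measured, 7 were higher and 1 was lower, with a median log2 ratio of 3.19, and their summed FPKM was 1218 in *mxcmbn1*, 262 in *mxcG43* and 209 in wild type. *He* (*Hemese*), a surface protein of haemocytes, had 398 in *mxcmbn1*, 34.0 in *mxcG43* and 46.0 in wild type. *Hml* (*Hemolectin*), a clotting protein of plasmatocytes, had 100.2 in *mxcmbn1*, 9.98 in *mxcG43* and 11.3 in wild type. *nimC1*, a phagocytosis receptor, had 112 in *mxcmbn1*, 10.5 in *mxcG43* and 3.28 in wild type. These 3 of the 10 markers were thus between 10.04 and 11.68 times higher than in *mxcG43*. *nimC4*, a receptor for apoptotic cells, had 42.1 in *mxcmbn1*, 0.338 in *mxcG43* and 0.328 in wild type, on 695 reads in *mxcmbn1* and 4 in *mxcG43*, a ratio of 124 (interval 48.3 to 457). *nimC2* went the other way, with 7.30 in *mxcmbn1*, 85.8 in *mxcG43* and 32.0 in wild type, and *nimC3* had 3.06 in *mxcmbn1*, 7.32 in *mxcG43* and 3.40 in wild type. *crq*, a scavenger receptor, had 95.1 in *mxcmbn1*, 75.8 in *mxcG43* and 60.8 in wild type. The neighbours *nimB4*, *He*, *nimB5* and *nimC1* with *Cyp28a5* formed a run of 5 higher genes on 2L from 13968280 to 13979573. The haemocyte markers moved with the humoral genes above, and their part in those values was not tested.

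*proPO-A1*, a prophenoloxidase and the only crystal cell marker measured, had 214 in *mxcmbn1*, 36.6 in *mxcG43* and 77.7 in wild type. Of 6 lamellocyte markers, 2 were higher, with a list median of 1.31 on the log2 scale. *alphaPS4*, an integrin subunit, had 16.6 in *mxcmbn1*, 0.465 in *mxcG43* and 0.424 in wild type, a ratio of 35.7, while *atilla*, a lamellocyte surface protein, had 29.3 in *mxcmbn1*, 9.12 in *mxcG43* and 20.9 in wild type. Among 8 regulators of blood cell fate, 4 were higher and none was lower. *kn* (*collier*), which marks the niche of the lymph gland and is also used in the nervous system and muscle, had 13.5 in *mxcmbn1*, 1.503 in *mxcG43* and 0.956 in wild type. *srp*, a GATA factor of blood and fat body, had 51.5 in *mxcmbn1*, 10.7 in *mxcG43* and 14.05 in wild type, and *zfh1* had 34.0 in *mxcmbn1*, 5.31 in *mxcG43* and 4.95 in wild type. The growth factor *Pvf2* had 45.9 in *mxcmbn1*, 3.64 in *mxcG43* and 4.48 in wild type, and its receptor *Pvr* had 42.8 in *mxcmbn1*, 10.2 in *mxcG43* and 11.2 in wild type. *Pvf1* and *Pvf3*, the other ligands, lay at 1.41 and 0.706 times the *mxcG43* level.

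Basement membrane genes, which haemocytes and fat body express, were mostly above the *mxcG43* level. All 10 measured as single genes had a positive log2 ratio, with a median of 1.73, and 4 were higher. *trol* (perlecan) lies only in an entry joined with *mir-4955*, which had 12.7 in *mxcmbn1*, 18.5 in *mxcG43* and 16.4 in wild type. *Ppn* (*Papilin*) had 170 in *mxcmbn1*, 11.8 in *mxcG43* and 10.2 in wild type, and *BM-40-SPARC* had 340 in *mxcmbn1*, 66.0 in *mxcG43* and 60.5 in wild type. The laminins *LanB1* and *LanB2* were 4.98 and 5.24 times higher, and the collagens *Cg25C* and *vkg* 2.37 and 2.42 times. Of the proteases and their inhibitor, *Mmp1* was at 1.26 times, *Mmp2* at 3.16 times and *Timp* at 1.59 times. *shg*, the E-cadherin that joins lymph gland and epithelial cells, had 2.73 in *mxcmbn1*, 6.16 in *mxcG43* and 6.38 in wild type.

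**Figure D3:**
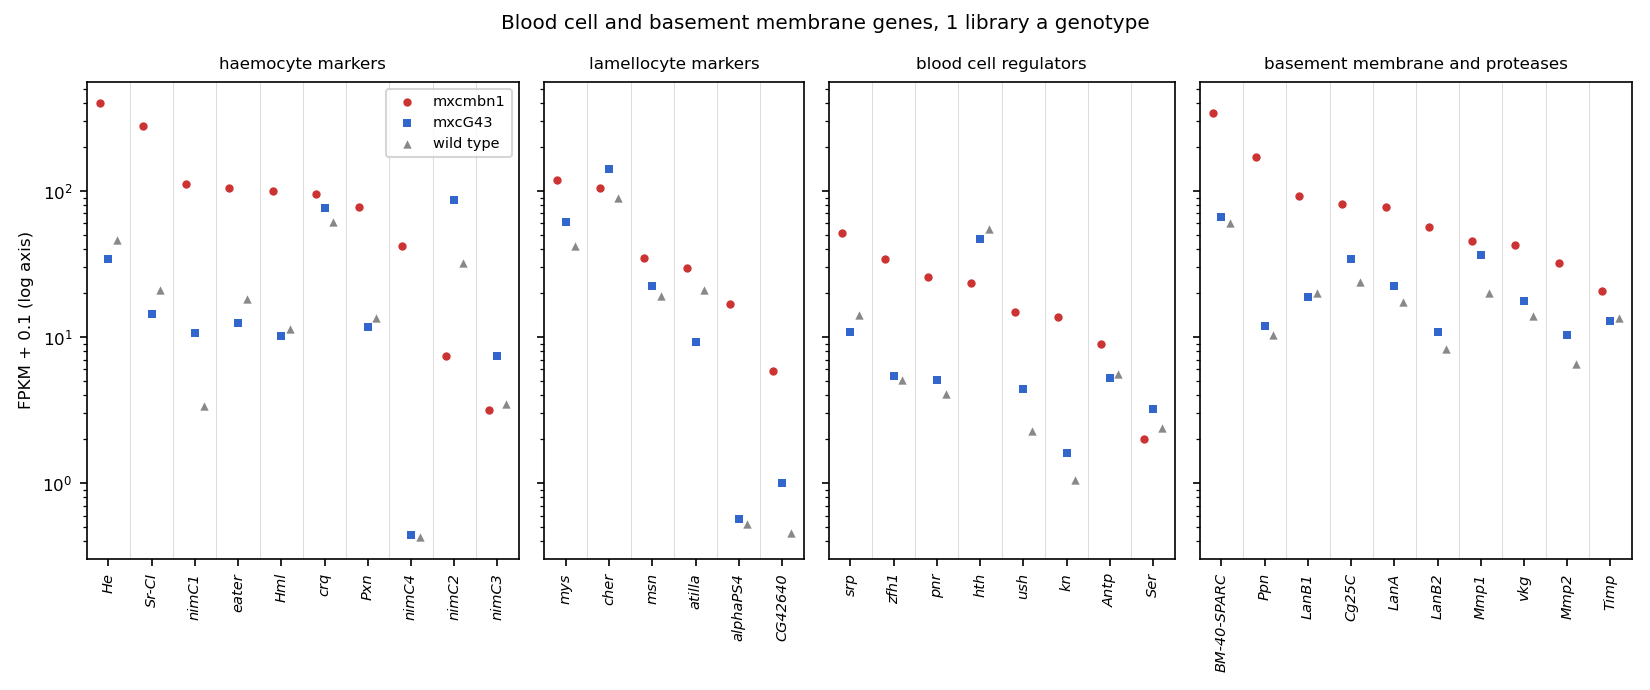
FPKM plus 0.1 (log axis) of the blood cell and basement membrane genes in *mxcmbn1* (circles), *mxcG43* (squares) and wild type (triangles), 1 library each. In 7 of 10 haemocyte markers the *mxcmbn1* point stands more than 4 times above the *mxcG43* point, and *nimC2* shows the reverse order.

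Cell division genes differed less. All 44 histone gene copies measured, of 111 listed, were between 0.62 and 1.45 on the log2 scale above *mxcG43*, with a median of 1.10 and none past 4 times. These copies are near identical, so their reads were divided by the quantification, and their mRNAs lack the tails on which mRNA libraries often depend. Of 17 DNA replication genes, none passed 4 times and 16 had a positive log2 ratio, with a median of 0.67. *Mcm6*, a subunit of the replicative helicase, had 14.3 in *mxcmbn1*, 5.02 in *mxcG43* and 8.47 in wild type. Of 12 mitotic genes, *stg*, the phosphatase that starts mitosis, was the only one higher, with 36.3 in *mxcmbn1*, 7.97 in *mxcG43* and 11.8 in wild type. The mitotic cyclins *CycA* and *CycB* had 0.991 and 0.711 times the *mxcG43* level, so the list held members on both sides. The 16 Polycomb group genes, among which *mxc* was once counted for its sex comb phenotype, had a median log2 ratio of 0.34 with none past 4 times.

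The largest group of lower genes that the lists name was that of the testis. Of 24 spermatid genes measured, 23 were lower in *mxcmbn1*, with a median log2 ratio of -6.08, and their summed FPKM was 40.7 in *mxcmbn1*, 2164 in *mxcG43* and 2706 in wild type. The median gene had 1.29% of its *mxcG43* level in *mxcmbn1*, with quartiles of 0.973% and 1.66%. *betaTub85D*, the testis-specific beta-tubulin, had 1.47 in *mxcmbn1*, 112 in *mxcG43* and 131 in wild type. *Mst77F*, a protein that packs sperm DNA, had 3.91 in *mxcmbn1*, 250.3 in *mxcG43* and 275 in wild type. *S-Lap1*, a sperm aminopeptidase, had 1.70 in *mxcmbn1*, 175 in *mxcG43* and 186 in wild type. In each of these, *mxcG43* lay near wild type and *mxcmbn1* far below both. *Mst84Da*, *Mst84Db*, *Mst84Dc* and *Mst84Dd*, which code for structural proteins of the sperm tail, lie in a run of 10 lower genes on 3R from 3172555 to 3248779. *twe*, a phosphatase of male meiosis, had 4.76 in *mxcmbn1*, 12.7 in *mxcG43* and 16.7 in wild type, and was the only member within 4 times. *bol*, which promotes the translation of *twe*, was 7.90 times lower, with 7.54 in *mxcmbn1*, 59.6 in *mxcG43* and 68.0 in wild type.

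The regulators that switch on spermatocyte genes split in level. Of 11 meiotic arrest regulators, 6 were lower. *can*, a testis form of a TFIID subunit, had 0.0237 in *mxcmbn1*, 5.14 in *mxcG43* and 8.36 in wild type, on 1 and 155 recovered reads in *mxcmbn1* and *mxcG43*, a ratio of 217 (interval 38.3 to 8614). *sa* and *nht*, of the same complex, had 0.174 and 0.175 in *mxcmbn1*, 6.43 and 9.32 in *mxcG43*, and 9.06 and 17.6 in wild type. *aly* had 0.158 in *mxcmbn1*, 2.25 in *mxcG43* and 3.39 in wild type. *mip40*, which is also expressed outside the testis, was level at 18.2 in *mxcmbn1*, 18.2 in *mxcG43* and 29.9 in wild type. The Y-linked genes *ARY* and *Ppr-Y* were lower as well, with 0.276 and 0.111 in *mxcmbn1*, 6.94 and 1.17 in *mxcG43*, and 6.997 and 1.81 in wild type.

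Genes of early germ cells did not share this pattern as a list. Of 9 measured, 2 were higher, 1 was lower and the median log2 ratio was 1.04. *bam*, which makes germ cells leave the stem cell state, had 6.20 in *mxcmbn1*, 12.5 in *mxcG43* and 27.7 in wild type, and its partner *bgcn* had 0.256 in *mxcmbn1*, 2.58 in *mxcG43* and 2.59 in wild type. *piwi*, of the piRNA pathway, had 5.95 in *mxcmbn1*, 1.81 in *mxcG43* and 1.48 in wild type, and *zpg*, a gap junction protein of the germ line, had 4.25 in *mxcmbn1*, 0.957 in *mxcG43* and 0.994 in wild type. *nos* had 3.29 in *mxcmbn1*, 1.36 in *mxcG43* and 0.619 in wild type. *vas*, a helicase that marks germ cells, stayed under 1 FPKM in both mutants, with 0.288 in *mxcmbn1*, 0.823 in *mxcG43* and 2.31 in wild type, and *osk* did too. Early germ cell genes thus lay on either side of the *mxcG43* level.

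The genes with the lowest ratios carry little annotation. In the same ranking, the 15 lowest genes had between 0.239% and 0.378% of their *mxcG43* level. Reads were recovered for 12 of them, and 11 of the 12 rest on 1 *mxcmbn1* read. The lowest was *CG15286*, with 0.0399 in *mxcmbn1*, 16.7 in *mxcG43* and 20.2 in wild type, 418 times lower in *mxcmbn1* (interval 74.5 to 16570). *ran-like*, a relative of the nuclear transport GTPase Ran, had 0.0812 in *mxcmbn1*, 31.5 in *mxcG43* and 32.3 in wild type. *CG34206* was unlike the others, with 0.523 in *mxcmbn1*, 145 in *mxcG43* and 8.65 in wild type. Of the genes lower in *mxcmbn1* that were above 0 there and had at least 10 in *mxcG43*, 657 of 927 were under 5% of the *mxcG43* level, and the median was 2.06%. Of 84 ribosomal protein genes, 3 were lower, of which *RpL10Aa* had 0.337 in *mxcmbn1*, 32.8 in *mxcG43* and 41.7 in wild type, while the median log2 ratio of all 84 was 0.20.

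By position, the lower genes made up 21.8% of those measured on 2L, 16.7% on 2R, 19.3% on 3L, 17.8% on 3R and 18.2% on the X, but 3.61% of the 83 genes on chromosome 4. On the mitochondrial genome, 42.9% of the 21 genes measured were higher and none was lower. The list of mitochondrially encoded transcripts held 7 genes measured, with none past 4 times and a median log2 ratio of 0.535. Lower genes lay in 82 runs of at least 4 neighbours, which held 480 genes, and higher genes in 8 runs, which held 45. The higher runs include clusters of tRNA and snoRNA genes. The longest run, of 18 lower genes on the X from 13894243 to 14081874, holds *Stellate* copies, testis genes of near-identical sequence. *Ste12DOR* had 0.000254 in *mxcmbn1*, 1.62 in *mxcG43* and 0.00318 in wild type, and *Su(Ste):CR42418*, a copy of the Y-linked suppressor, had 76.4 in *mxcmbn1*, 1.34 in *mxcG43* and 1.11 in wild type. Such copies cannot be told apart by these reads, and their values are uncertain.

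Genes that mark the late 3rd instar were lower. The salivary glands make glue proteins shortly before pupariation, and 5 of 9 glue genes were lower in *mxcmbn1*, with a median log2 ratio of -3.59 and a summed FPKM of 2661 in *mxcmbn1*, 24790 in *mxcG43* and 30560 in wild type. *Sgs3* had 740.1 in *mxcmbn1*, 8941 in *mxcG43* and 6850 in wild type, and *Sgs8* had 112 in *mxcmbn1*, 1983 in *mxcG43* and 2710 in wild type. *ng3*, an earlier salivary gland gene, had 381 in *mxcmbn1*, 229 in *mxcG43* and 669 in wild type. Of the 6 *Sgs* genes, *Sgs4* alone did not pass 4 times, at 0.263 times the *mxcG43* level, and none of the *ng* genes did, with *ng1* and *ng2* at 0.733 and 0.786 times the *mxcG43* level. *Fbp1*, a fat body receptor of storage proteins that ecdysone induces, had 111 in *mxcmbn1*, 4098 in *mxcG43* and 1129 in wild type. Of 14 ecdysone response genes, 5 were lower. *ImpE2* had 4.38 in *mxcmbn1*, 204 in *mxcG43* and 96.3 in wild type, and *Hr46*, a nuclear receptor, had 0.233 in *mxcmbn1*, 7.71 in *mxcG43* and 2.81 in wild type, while *EcR*, the ecdysone receptor, had 22.4 in *mxcmbn1*, 21.1 in *mxcG43* and 30.8 in wild type. *ftz-f1*, a later factor, had 8.15 in *mxcmbn1*, 2.45 in *mxcG43* and 3.41 in wild type. The study describes the *mxcmbn1* and wild-type larvae as mature and of one stage. For its lymph gland work, it also reports that some *mxcmbn1* animals were still larvae when its *w* controls had already pupated. Lymph glands of mutants were there collected on the same day as those of controls or later. The *mxcG43* larvae are labelled only as 3rd instar. The part of the stage in these values was not tested.

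Cuticle and tanning genes were mostly below their *mxcG43* level in *mxcmbn1*. Of 61 cuticle protein genes, 18 were lower and none was higher, with a median log2 ratio of -1.18. Their summed FPKM was 11050 in *mxcmbn1*, 36550 in *mxcG43* and 44660 in wild type. *Lcp2* had 90.3 in *mxcmbn1*, 2062 in *mxcG43* and 3608 in wild type, but *Cpr65Ax1* had 118 in *mxcmbn1*, 789.8 in *mxcG43* and 18.2 in wild type, so members differed in which library stood apart. Of 9 pigment and tanning genes measured, 4 were lower and none was higher, and 3 had a positive log2 ratio. *ple*, tyrosine hydroxylase, had 5.62 in *mxcmbn1*, 377 in *mxcG43* and 53.0 in wild type. *e*, which joins beta-alanine to dopamine for a light cuticle, had 1.93 in *mxcmbn1*, 109.9 in *mxcG43* and 4.63 in wild type. *Ddc*, dopa decarboxylase, had 10.2 in *mxcmbn1*, 84.5 in *mxcG43* and 46.5 in wild type. For these 3 enzymes of the dopamine branch *mxcG43* was above wild type and *mxcmbn1* below it.

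Heat shock genes gave a further set in which *mxcG43* was the highest library. All 6 small heat shock genes measured and 7 of 9 inducible ones were lower in *mxcmbn1*. *Hsp23* had 97.0 in *mxcmbn1*, 1733 in *mxcG43* and 475 in wild type, and *Hsp27* had 79.2 in *mxcmbn1*, 653 in *mxcG43* and 365 in wild type. *Hsp70Aa*, 1 of 6 near-identical copies of the inducible chaperone, had 6.37 in *mxcmbn1*, 70.1 in *mxcG43* and 1.77 in wild type. The *Hsp70* copies were thus lowest in wild type, and the small ones lowest in *mxcmbn1*. *stv*, a cochaperone, was level at 21.3 in *mxcmbn1*, 21.9 in *mxcG43* and 11.5 in wild type.

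**Figure D4:**
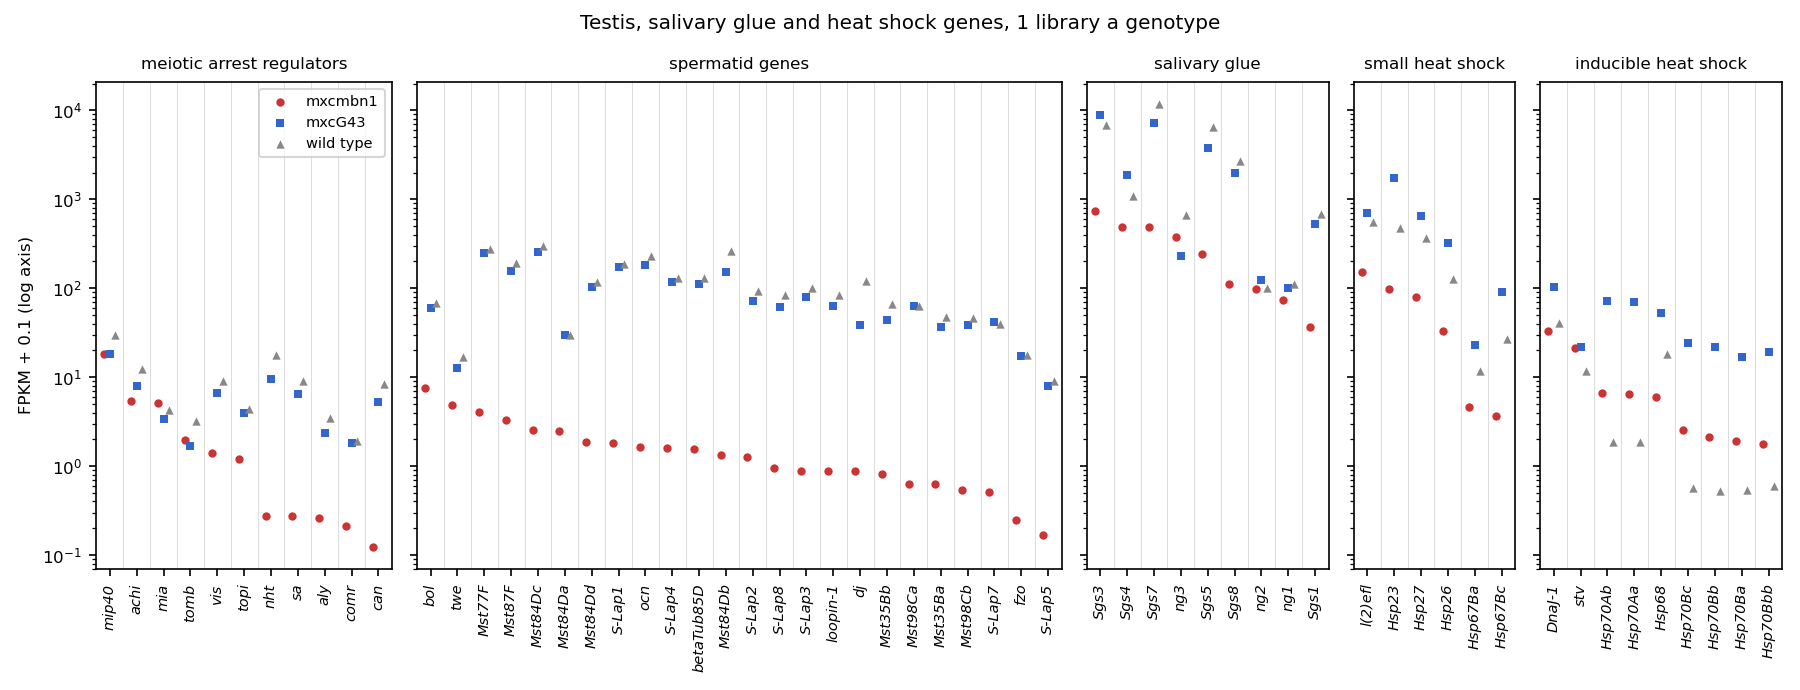
FPKM plus 0.1 (log axis) of testis, salivary glue and heat shock genes in *mxcmbn1* (circles), *mxcG43* (squares) and wild type (triangles), 1 library each. In the spermatid panel *mxcG43* and wild type lie together and *mxcmbn1* far below, while for the inducible heat shock genes *mxcG43* lies above both other libraries.

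Muscle, glycolysis and digestive genes were nearer to level, while imaginal disc patterning and nervous system genes were mostly below their *mxcG43* level. The 15 muscle genes had a median log2 ratio of -0.16 with none past 4 times, and the 13 glycolysis genes a median of 0.05 with none past 4 times. Of 37 midgut digestive enzymes, *Mal-A3*, a maltase, was the only one past 4 times, with 34.9 in *mxcmbn1*, 7.37 in *mxcG43* and 16.7 in wild type. Of 14 imaginal disc patterning genes, 3 were lower, a share near the 18.4% over all genes measured. A negative log2 ratio was seen for 11 of the 14, and the median was -1.04. *Dll*, which sets the limb axis, had 1.45 in *mxcmbn1*, 6.74 in *mxcG43* and 6.25 in wild type, whereas *vg*, the wing selector, had 1.32 in *mxcmbn1*, 1.28 in *mxcG43* and 0.932 in wild type. Of 9 nervous system genes none passed 4 times and all were below the *mxcG43* level, with a median of -0.80. Of 10 insulin signalling genes measured, *Ilp5*, an insulin-like peptide of the brain, was the only one past 4 times. It was listed at 0 in *mxcmbn1* and had 9.66 in *mxcG43* and 0.646 in wild type, while *Ilp2* and *Ilp3* of the same brain cells lay at 0.562 and 0.866 times the *mxcG43* level. *Ilp8*, which discs release when growth is disturbed, had 3.44 in *mxcmbn1*, 0.963 in *mxcG43* and 0.800 in wild type.

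**Figure D5:**
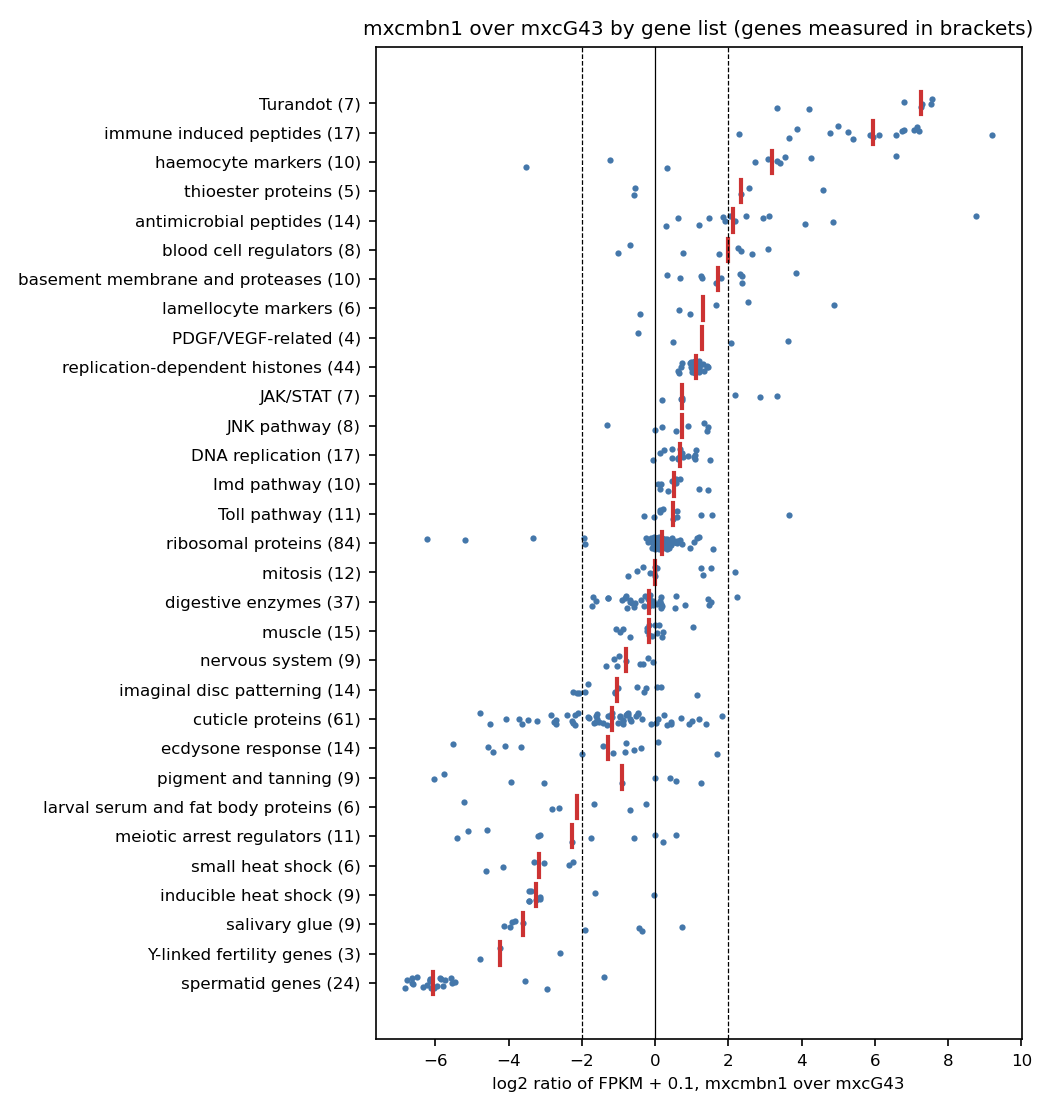
Each point is the log2 ratio of FPKM plus 0.1, *mxcmbn1* over *mxcG43*, of 1 gene, by list, with the number of genes measured in brackets. The red bar is the list's median, from 7.26 for the Turandot genes at the top to -6.08 for the spermatid genes at the bottom, and the dashed lines mark 4 times.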

How the data were processed

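Whole male larvae were measured by RNA-seq with 1 library for each of 3 genotypes, using a strand-specific kit and single-end reads of 51 bp. Per the labels and methods, the authors checked reads with FastQC 0.11.5, aligned them to BDGP5 with TopHat2 2.0.6 and quantified genes with Cufflinks, and deposited FPKM values. The gene annotation and read filter are not given in the sources used here, and the table holds no counts. The members and gene lists were chosen with earlier results of these data known.

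Here, entries joining several genes were left out, 0.1 FPKM was added before log2 ratios, and genes with at least 1 FPKM in the higher library were called past 4 times. The named genes were members of 62 fixed lists, genes the study names, *w*, and the 15 highest and 15 lowest ratios of genes that reached 10 FPKM in 1 library and were above 0 in the other. *Stellate* and its suppressor copies, *nimB4* and *nimB5* were named from lists or runs of neighbours. Loci start from 1 on BDGP5. The BDGP6 table of RefSeq gave only gene classes, for 14746 genes.

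Smallest whole numbers of reads were recovered from the ratios of low FPKM values, within a relative tolerance of 5e-05 and up to 1000 reads, with a limit on chance fits tightened after values had been seen. They came out for 3823 of 13310 entries above 0 in at least 2 libraries, and for 16 of 14470 after the libraries were shuffled. The *mxcmbn1* library was 1.40 times as deep as that of *mxcG43*, and wild type 1.03 times. True reads can be a common multiple. Intervals of 95% (Clopper-Pearson) on these reads cover counting error only. A level at 0 reads was set to a floor of 3 reads. The steps were tested on simulated data. Calculations used numpy 2.4.6 with scipy 1.17.1 and pandas 2.3.3 under Python 3.11.15, and plots used matplotlib 3.10.9. Alternatives covered pseudocounts, minimum FPKM, rescaling, thresholds, overlapping loci and gene class.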

Additional observations from a re-analysis of the deposited data

Results flagged for a closer look

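Outside the comparison, entries that join several genes also held calls in both directions. Of the 280 such entries that reached 1 FPKM in either mutant, 8 were at least 4 times higher in *mxcmbn1* than in *mxcG43* (2.86%) and 41 were at least 4 times lower (14.6%). Both shares lie below those over single genes, 5.25% and 18.4%. They were looked at because no single gene can be given their reads. The entry joining *CG18754* with *SPE*, the protease that activates the Toll ligand, had an FPKM of 83.0 in *mxcmbn1*, 5.96 in *mxcG43* and 6.13 in wild type. The entry joining *CG31709* with *gcm*, a regulator of blood and glial fate, had 1.52 in *mxcmbn1*, 92.2 in *mxcG43* and 121 in wild type, and which of both genes carried these reads was not tested. Other members of the lists that lie only in such joined entries (*Dif* with *dl*, *PGRP-LD*, *drpr*, *trol*, *Adgf-A*, *janB*, *usp*, *Hsp22* with *Hsp67Bb*) have no value of their own.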

How the results depend on the processing

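With 1 library per genotype no ratio has a replicate check. With a threshold of 2 times, 1713 genes were higher, and with 10 times, 309. Leaving out genes with an overlapping locus left 385 higher and 1378 lower among 7139 genes, which is fewer genes compared. Every other setting kept both counts within 1.5 times, protein-coding genes only among them (451 higher and 1968 lower, a setting chosen after seeing the data). Rescaling by the median ratio (factor 1.10, a shift of 0.14 in log2) or by the upper quartile (1.03) moved no list median by 0.5 or more. A pseudocount of 1 FPKM moved 7 of 61 list medians by more, among them Turandot, at 5.13, and the spermatid genes, at -5.12, and one of 0.01 FPKM moved 3. A pseudocount of 1 FPKM also moved 30 of 49 named ratios by more, all towards 0. No direction past 4 times reversed. Of the lower genes with recovered reads, 669 of 1000 rest on 3 or fewer *mxcmbn1* reads. No paired analysis was possible because each genotype has 1 library.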

Other observations

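Several families outside the lists above held members with large ratios. Among the odorant-binding proteins, 3 of 25 were higher and 7 were lower in *mxcmbn1*. *Obp99b*, one of the most abundant of them, had an FPKM of 375 in *mxcmbn1*, 7236 in *mxcG43* and 6912 in wild type, whereas *Obp49a* had 219.6 in *mxcmbn1*, 31.4 in *mxcG43* and 14.1 in wild type. Of 17 glutathione transferases, which detoxify reactive compounds, 3 were higher and none was lower. *GstD5* had 39.0 in *mxcmbn1*, 2.86 in *mxcG43* and 0.792 in wild type, and *GstE6* had 90.6 in *mxcmbn1*, 20.4 in *mxcG43* and 10.2 in wild type.

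Among the serpins, *Spn88Eb* had 232 in *mxcmbn1*, 13.8 in *mxcG43* and 17.9 in wild type, while *Spn43Aa* had 2.37 in *mxcmbn1*, 69.5 in *mxcG43* and 18.8 in wild type. *Tsf1*, the iron carrier of the haemolymph, had 95.5 in *mxcmbn1*, 18.2 in *mxcG43* and 13.2 in wild type, and the ferritin subunits *Fer1HCH* and *Fer2LCH* lay at 1.10 and 0.946 times the *mxcG43* level. *Idgf1*, a chitinase-like growth factor, had 169 in *mxcmbn1*, 26.1 in *mxcG43* and 41.8 in wild type. *Adgf-E*, an adenosine deaminase, had 0.0822 in *mxcmbn1*, 9.89 in *mxcG43* and 4.79 in wild type, on 1 recovered read in *mxcmbn1* and 86 in *mxcG43*, 120.2 times lower in *mxcmbn1* (95% interval 21.01 to 4804). No explanation was tested for any of these values.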
